A study of Mus musculus with 4 samples.

Results

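Circular RNAs (circRNAs) of Ttn, the gene of the giant sarcomere protein titin, were described across the gene in heart tissue of C57BL/6 mice. The members are all listed circRNAs whose host label contains Ttn, 31 of the 1046 circRNAs in the 4 libraries (3.0%), with 660 of 7303 back-splice reads (9.0%). A back-splice read crosses a junction at which the end of a downstream exon (the donor site) is joined to the start of an upstream exon (the acceptor site), which closes a circle. The study compared 2 libraries after sham surgery (sham 1 and sham 2) with 2 from a mouse model of myocardial ischemia/reperfusion injury (I/R 3 and I/R 4), an interruption of cardiac blood supply followed by reflow. Total RNA of heart was used; the labels used here name no age, no sex, no duration of ischemia or reflow and no region of the heart. They also name no animal for a library, and any p-value therefore rests on library-to-library spread that may be technical. Values per library follow the order sham 1, sham 2, I/R 3, I/R 4 throughout.

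Titin spans from the Z-disc to the M-band of the sarcomere and acts as a molecular spring. Its elastic I-band part holds a long row of immunoglobulin (Ig) domains, mostly coded by 1 exon each, followed by the PEVK region, which is rich in proline, glutamate, valine and lysine and is coded by many short exons. The heart splices this stretch in different ways, long in compliant N2BA forms and short in the stiff N2B form, and the splicing factor RBM20 promotes the skipping. Circles from the I-band exons of titin are a known class of cardiac circRNA, and their formation is known to need RBM20.

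The files give sites in the mouse build mm9, and the annotation used here (GENCODE M21) is of another build, GRCm38, so no coordinate was converted. Exons were found from the spacing of the sites instead. With 1 constant distance, 30 of the 31 distinct Ttn sites (16 donors and 15 acceptors) fell exactly on exon ends of annotated Ttn transcripts, and the next best distance placed 3. Exon numbers are those of the longest annotated transcript, Ttn-203, which has 347 exons and 106824 bases. The short transcript Ttn-201, with 192 exons and 81843 bases, lacks exons 48 to 201 of Ttn-203, a run of 154 exons and 24843 bases, and keeps the long exon 46 of 2646 bases.

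The junctions of the circles with at least 10 reads over the 4 libraries are shown first because most of them share 1 donor. The last junction shown, that of exons 120 to 171, has 9 reads. Each sequence gives the last 20 bases of the donor exon in lower case and the first 20 bases of the acceptor exon in capitals, 5′ to 3′ on the Ttn strand, which is the minus strand. The bases were taken by exon number from the GENCODE M21 sequence of Ttn-203, not from the reads.
exons 87 to 120, chr2:76695961-76719896 (mm9): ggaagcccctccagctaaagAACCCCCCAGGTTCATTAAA
exons 86 to 120, chr2:76695961-76722254 (mm9): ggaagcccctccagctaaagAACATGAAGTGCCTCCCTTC
exons 77 to 120, chr2:76695961-76726144 (mm9): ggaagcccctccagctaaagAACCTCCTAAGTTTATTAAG
exons 68 to 120, chr2:76695961-76731234 (mm9): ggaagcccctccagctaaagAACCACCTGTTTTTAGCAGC
exons 46 to 120, chr2:76695961-76748010 (mm9): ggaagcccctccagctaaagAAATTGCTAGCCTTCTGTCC
exons 106 to 112, chr2:76701331-76706142 (mm9): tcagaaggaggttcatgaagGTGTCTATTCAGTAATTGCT
exons 120 to 171, chr2:76669845-76696044 (mm9): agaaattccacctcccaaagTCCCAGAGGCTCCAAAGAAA
The first 5 junctions leave the same exon end and enter different exons. The last one uses exon 120 from its other side, as the acceptor. Exon 120 has 84 bases, and 78.6% of its codons are for proline, glutamate, valine or lysine.
exon 120: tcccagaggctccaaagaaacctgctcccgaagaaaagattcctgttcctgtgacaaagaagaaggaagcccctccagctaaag

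Most circles lay in the I-band stretch that the short transcript lacks. All exons of 24 of the 30 circles with both sites matched were among these missing exons. These 24 circles held 118 of 137 Ttn reads in sham 1 (86.1%, 95% Clopper-Pearson interval 79.2 to 91.4), 61 of 65 in sham 2 (93.8%, 85.0 to 98.3), 168 of 181 in I/R 3 (92.8%, 88.0 to 96.1) and 266 of 277 in I/R 4 (96.0%, 93.0 to 98.0). The circle from exon 102 to inside exon 101 also lies within these exons but was not among the 24. Its 2 reads in each sham library count only in the totals, and it was not listed in I/R. The groups overlapped in the share of the 24 circles (exact two-sided permutation p = 0.667). With 2 libraries against 2, the smallest p that this test can give is 0.3333. The Clopper-Pearson intervals treat each read as independent and leave out library-to-library spread. Without molecular identifiers several reads can stem from 1 molecule, so the intervals may be too narrow.

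Within this run the composition of the exons changes, as the plot of codon composition by exon shows. Of exons 48 to 106, which have a median length of 279 bases, 50 of 59 measure from 279 to 288 bases, the range of all 22 exons from 67 to 88 that hold most of the acceptors joined to exon 120, and 29.1% of their codons are for proline, glutamate, valine or lysine. In exons 107 to 201, with a median length of 84 bases, the share is 71.0%, and in the whole protein of Ttn-203 it is 35.1%. The split is at the first exon of the run with a majority of such codons, and was placed after the composition had been seen. The acceptors most often joined to exon 120, those of exons 87, 86, 77 and 68, lie in the first stretch, and their exon lengths are 282, 288, 282 and 279 bases. The donor with the most reads, that of exon 120, lies in the PEVK exons. Most Ttn reads thus closed a PEVK exon back to an exon of the stretch that codes for Ig domains.

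**Figure D1:**
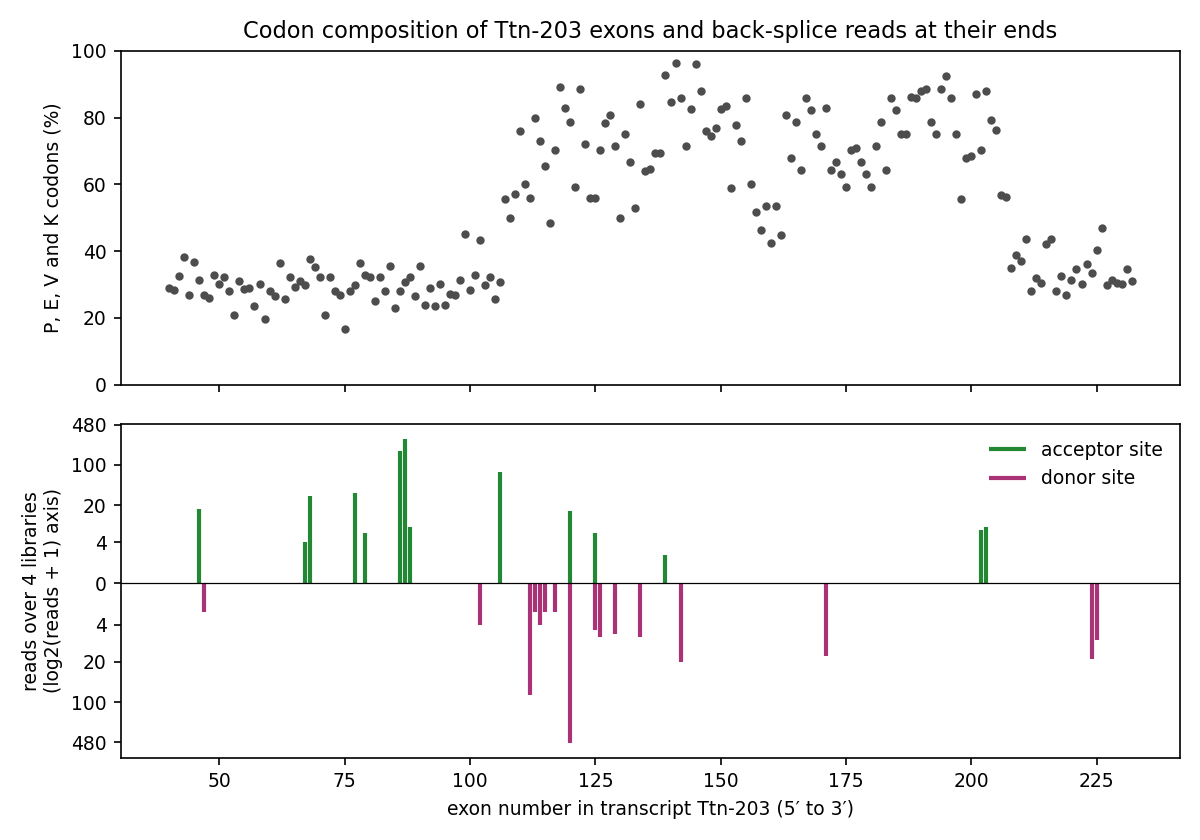
Top, percentage of codons for proline (P), glutamate (E), valine (V) and lysine (K) in each exon of Ttn-203, by exon number. Bottom, back-splice reads over the 4 libraries at acceptor sites (upward) and donor sites (downward) on a log2(reads + 1) axis; the tallest bars are the acceptor of exon 87 with 272 reads and the donor of exon 120 with 483 reads.

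The exons of every one of the 30 matched circles add up to a multiple of 3 bases. Of all Ttn-203 exons, 85.0% have such a length on their own. In the stretch that the short transcript lacks, only exons 100, 101 and 103 (286, 184 and 268 bases) do not. Any span there with both ends outside exons 100 to 103 adds up to a multiple of 3. The 24 circles within the stretch are such spans, so for them the result follows from where they lie. A preference of circles for such lengths was not tested. The circles cover from 2 to 138 exons and, with all Ttn-203 exons between their ends counted, from 330 to 20397 bases. Which exons a circle keeps inside is not known from junction reads, so these lengths are upper limits of what Ttn-203 allows. On the genome the 31 circles span 0.654 to 78.5 kb, with a median of 26.3 kb against 8.51 kb for the 1015 circRNAs without Ttn in their label. None of the 31 carries a circBase identifier in the deposited matrix, whereas 709 of the other 1015 circRNAs (69.9%) do.

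Splice sites of Ttn were shared between circles. The donor of exon 120 was joined to 8 acceptors, in exons 46, 67, 68, 77, 79, 86, 87 and 88. In turn, the acceptor of exon 87 was joined to 9 donors and that of exon 86 to 5. Outside Ttn, no site had more than 5 partners, and 92.0% of the 1892 sites over the 4 libraries had 1. Of the 31 Ttn sites, 21 had 1 partner. The donor of exon 120 took 101 of 137 Ttn reads in sham 1 (73.7%, 95% interval 65.5 to 80.9), 40 of 65 in sham 2 (61.5%, 48.6 to 73.3), 130 of 181 in I/R 3 (71.8%, 64.7 to 78.2) and 212 of 277 in I/R 4 (76.5%, 71.1 to 81.4). Sham 2 was lowest, and the groups overlapped (sham 67.6 ± 8.62% against I/R 74.2 ± 3.33%, SD, n = 2, exact two-sided permutation p = 0.667). Without the circle of exons 87 to 120, the most abundant of all, the donor took 54 of 90, 40 of 65, 51 of 102 and 105 of 170 reads, and the difference changed sign to -4.89 percentage points.

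**Figure D2:**
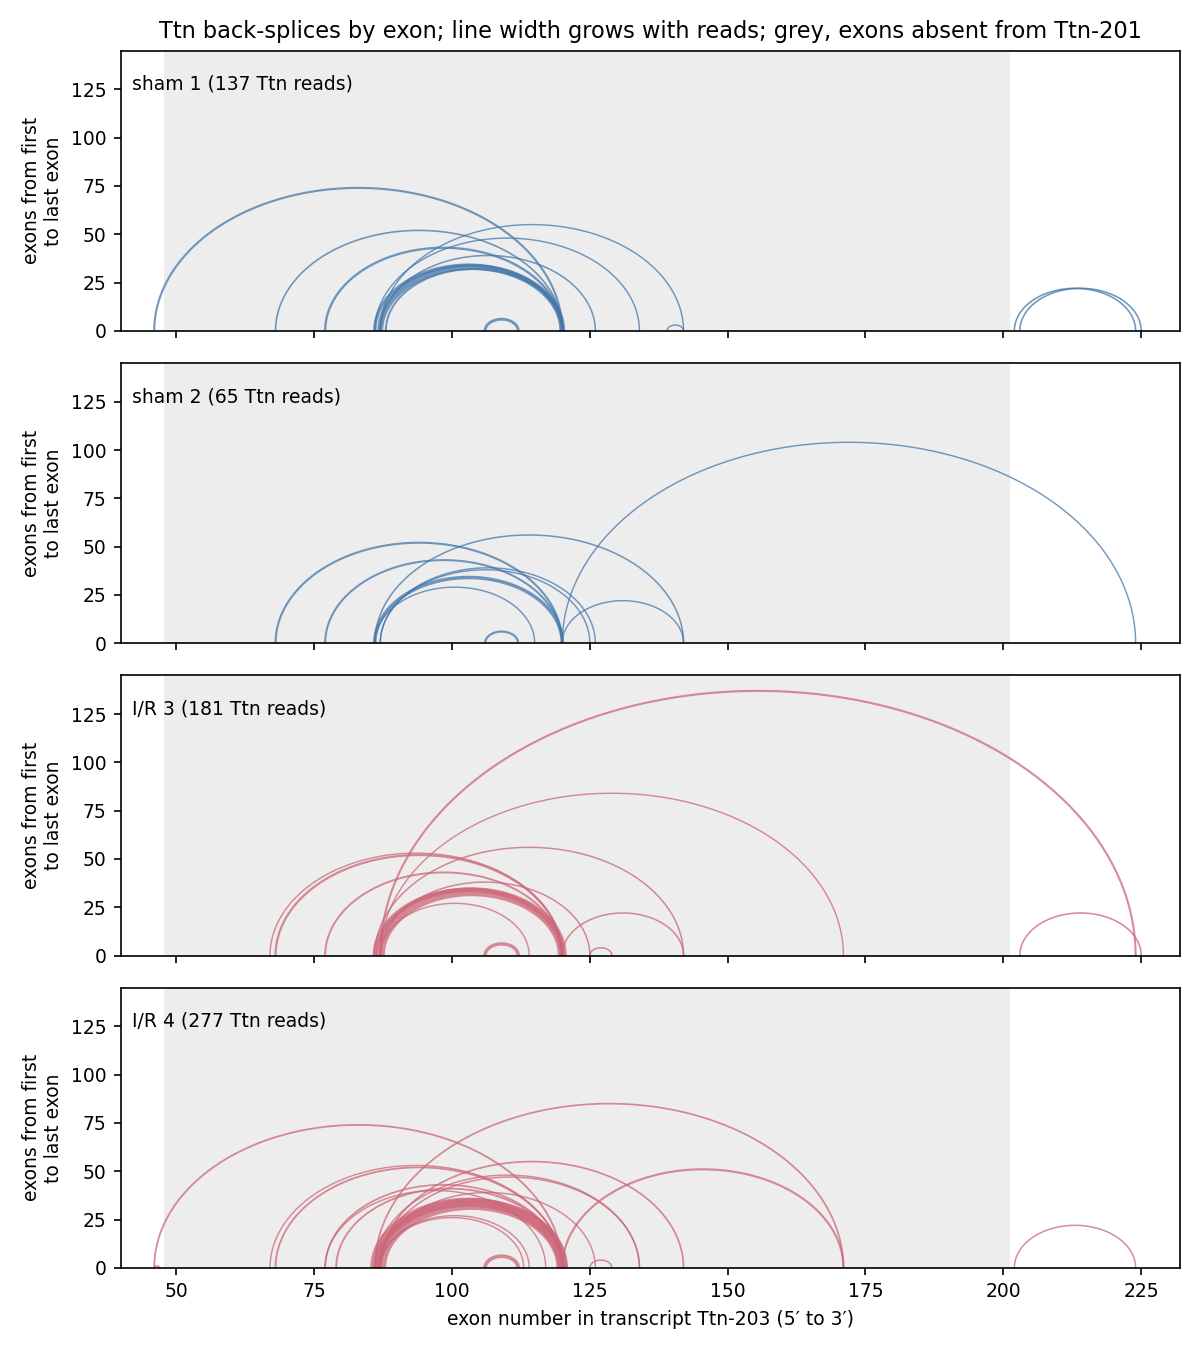
Each arc joins the first and last exon of a Ttn circle in Ttn-203 numbering, 1 panel per library, with line width growing with back-splice reads and height equal to the number of exons between its ends. The heavy arcs end at exon 120 in all panels, and few arcs leave the grey exons 48 to 201, which Ttn-201 lacks; 30 of the 31 circles have both sites matched to exons and can be drawn.

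The first comparison asked how much of the circular RNA came from Ttn in each group. Ttn was the host gene with the most circRNAs and the most reads; the next host by reads had 221. Libraries held 1627 to 1982 back-splice reads in all. Ttn took 137 of 1890 reads in sham 1 (7.25%, 95% interval 6.12 to 8.51), 65 of 1627 in sham 2 (4.00%, 3.10 to 5.06), 181 of 1804 in I/R 3 (10.03%, 8.68 to 11.5) and 277 of 1982 in I/R 4 (14.0%, 12.5 to 15.6). Both I/R libraries lay above both sham libraries, with means of 12.0 ± 2.79% and 5.62 ± 2.30% (SD, n = 2). The difference of 6.38 percentage points gave p = 0.3333 in the exact two-sided permutation test, its lower limit here.

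Without the circle of exons 87 to 120 the Ttn shares were 4.76%, 4.00%, 5.65% and 8.58%, and the difference was 2.74 percentage points. In edgeR's quasi-likelihood test on reads summed per host gene, Ttn had a log2 fold change of 1.19 (I/R against sham, SE 0.68, Benjamini-Hochberg adjusted p = 0.843). Of the 154 hosts tested 0 passed an adjusted p of 0.05 (0%), with 8 at an unadjusted p under 0.05, and DESeq2 and limma-voom also called 0. Both I/R libraries lay above both sham libraries in 18.2% of tested hosts. Without sham 1 the test on Ttn passed (log2 fold change 1.76, edgeR adjusted p = 0.0176), with sham 2, the library with the fewest Ttn reads, left alone in its group. Without sham 2 the log2 fold change was 0.77. In bulk tissue, fewer cells of a type and less RNA per cell cannot be told apart.

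Cardiomyocytes are the cells that express titin, and the series holds only circRNAs to check the tissue by. Of 14 cardiomyocyte markers, 6 (Ttn, Ryr2, Slc8a1, Myh6, Tnnt2 and Rbm20) had circRNA reads, with summed reads of 186, 138, 237 and 371, of which 49, 73, 56 and 94 were outside Ttn. Fibroblast, smooth muscle and pericyte, leukocyte and skeletal muscle markers (8, 6, 8 and 8 genes) had no listed read in any library. Back-splice reads do not measure expression of a gene. Only 6 of the 14 cardiomyocyte markers had any, so a lack of circRNA reads does not show that such cells were absent. Endothelial markers had reads at 2 of 8 genes, Pecam1 and Ptprm, with 6, 7, 6 and 10 reads. Their part in the Ttn result was not tested.

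The circles themselves were compared next. Most of the 31 were sparse: 4 were listed in every library, 2 in 3 libraries, 12 in 2 and 13 in a single one. The libraries listed 14, 11, 14 and 20 of them. In the files the smallest listed count is 2 reads. What else decided whether a circle was listed is not known from the sources used here, so a circle given at 0 is one that was not listed and may have had reads. Only 6 of the 31 had at least 10 reads over the 4 libraries and could be tested; the other 25 had up to 9 reads each and 121 together. None of the 6 passed an adjusted p of 0.05, and neither did any of the 158 circRNAs tested in all (0%; 9 at an unadjusted p under 0.05 in edgeR, and 0 calls by DESeq2 and by limma-voom). In 3 of the 6 both I/R libraries lay above both sham libraries, as in 17.7% of all tested circRNAs, and in 1 both lay below, as in 20.9%.

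**Figure D3:**
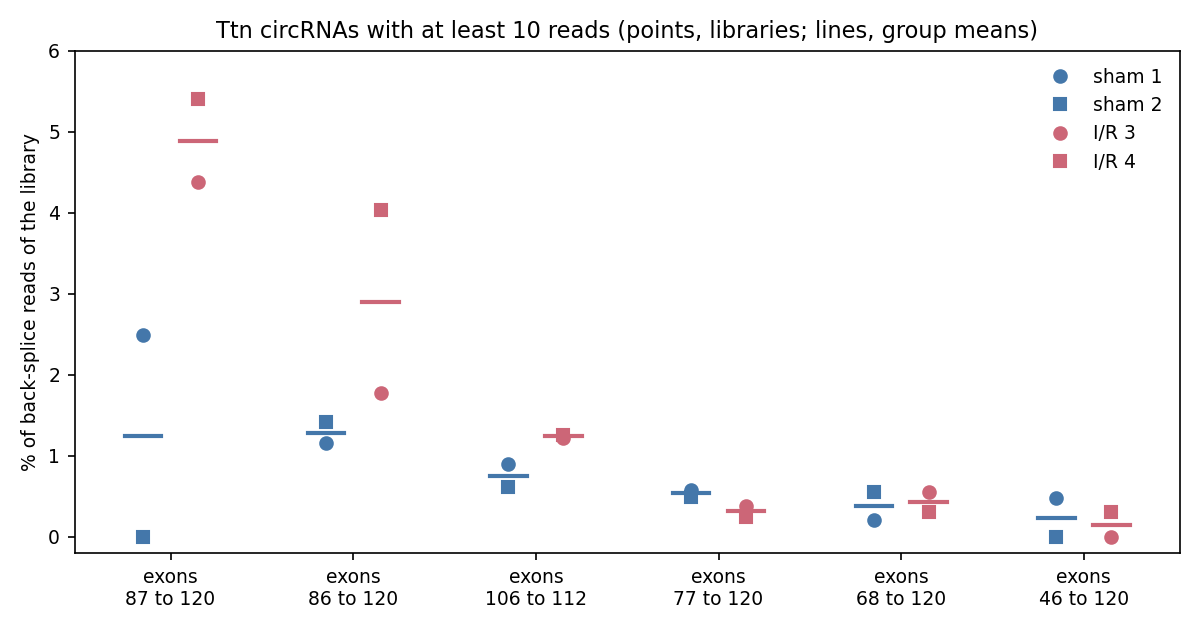
Percentage of each library's back-splice reads held by the 6 Ttn circles with at least 10 reads over the 4 libraries; points are libraries, circles and squares the 2 libraries of a group, and lines group means. The circle of exons 87 to 120 spans 0 to 2.49% in sham and 4.38 to 5.40% in I/R, while the others stay below 2% except in I/R 4.

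The circle of exons 87 to 120, from an Ig exon to the shared PEVK exon, had 47 reads in sham 1, none listed in sham 2, 79 in I/R 3 and 107 in I/R 4. These are 2.49%, 0%, 4.38% and 5.40% of the reads. Both I/R libraries were above both sham libraries, and the sham libraries were far apart. The fitted log2 fold change was 1.96 (SE 1.77, edgeR adjusted p = 0.920). Without sham 2 it was 0.86, and in limma-voom with all libraries it was 4.24 (adjusted p = 0.839). Without sham 1 the circle passed (fitted value 9.54, no bound; edgeR adjusted p = 3.92e-05), but the group was then represented by the library at 0. In the authors' deposited table this circle has a log2 fold change of 4.34 and an adjusted p of 0.00222, without a stated contrast or settings; 1 of the 31 Ttn circles and 11 of 1046 circRNAs (1.05%) are under 0.05 there.

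Both sites of this circle were read in sham 2, in other circles. With the same acceptor, that of exon 87, sham 2 had 2 reads each for the circles ending at exons 125 and 126. That of exons 87 to 126 came with 1313, 1582 and 1114 non-junction reads at its sites in sham 1, sham 2 and I/R 4. The donor of exon 120 had 40 reads in sham 2, all to other acceptors. The pairing of both sites was not listed there.

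With the neighbouring Ig exon as its start, the circle of exons 86 to 120 had 22, 23, 32 and 80 reads, or 1.16%, 1.41%, 1.77% and 4.04%. The sham libraries were close together and both below the I/R libraries, of which I/R 4 stood well above I/R 3. Its log2 fold change was 1.33 (SE 0.62, edgeR adjusted p = 0.920), and 0.46 without I/R 4.

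The circle of exons 106 to 112 lies where the Ig exons give way to the PEVK exons and shares no site with another circle. It had 17, 10, 22 and 25 reads, or 0.899%, 0.615%, 1.22% and 1.26% of the reads, again with both I/R libraries above both sham libraries. The log2 fold change was 0.80 (SE 0.43, edgeR adjusted p = 0.920), 1.24 without sham 1 and 0.35 without sham 2. With all 7 exons kept it would be 771 bases long, far shorter than the 6204 bases of exons 87 to 120.

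The tested circles that reach further upstream from exon 120, those of exons 77, 68 and 46, had other orders. Exons 77 to 120 had 11, 8, 7 and 5 reads, so both I/R libraries lay below both sham libraries (0.582%, 0.492%, 0.388% and 0.252%). Its log2 fold change was -0.64 (SE 0.39, edgeR adjusted p = 0.920), -0.39 without sham 1, -0.97 without sham 2 and -1.01 without I/R 3. For exons 68 to 120 there were 4, 9, 10 and 6 reads, with overlapping groups (log2 fold change 0.31, SE 0.53). The circle of exons 46 to 120 was listed with 9, 0, 0 and 6 reads, 1 library in each group (log2 fold change -0.57, SE 1.85). It starts in the long exon 46, which Ttn-201 and Ttn-203 hold and Ttn-204 and Ttn-205 lack. Without sham 1 or without I/R 3 the value of exons 68 to 120 changed sign, and so did that of exons 46 to 120 without I/R 3.

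The mix of acceptors joined to exon 120 differed between single libraries. Exon 87 took 46.5% of the reads at this donor in sham 1, 0% in sham 2, 60.8% in I/R 3 and 50.5% in I/R 4. Exon 86 took 21.8%, 57.5%, 24.6% and 37.7%. The acceptors of exons 77 and 68 together with those of exons 46, 67, 79 and 88 made up the rest. Exon 77 had 11 of 101, 8 of 40, 7 of 130 and 5 of 212 reads. No test was made of this mix. Sham 2 stands apart from the 3 other libraries in it.

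**Figure D4:**
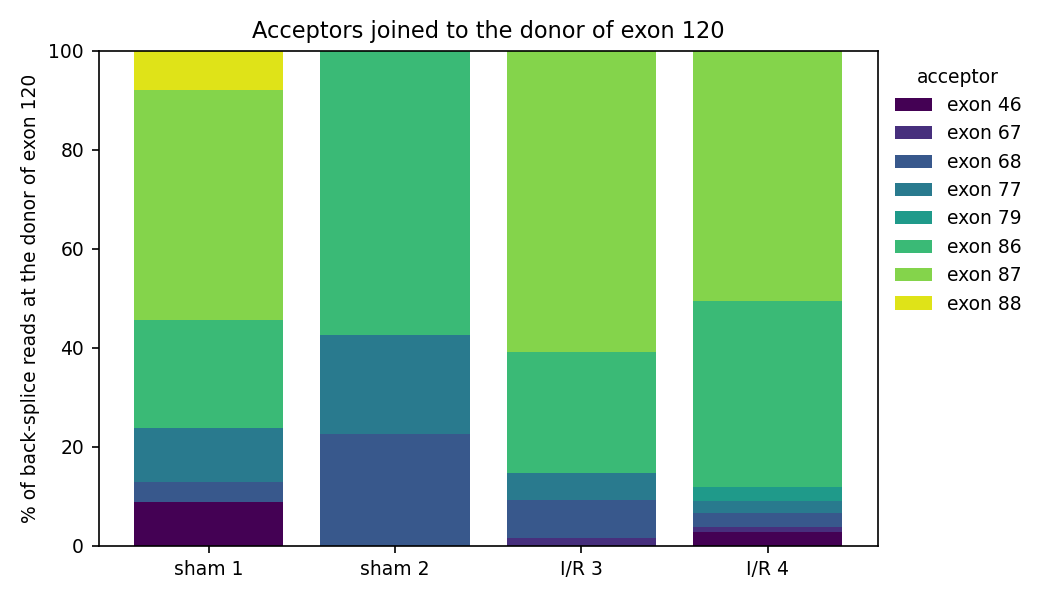
Stacked bars give, for each library, the percentage of back-splice reads at the donor of exon 120 that join each of its 8 acceptors, coloured by acceptor exon. The segment of exon 87 is the tallest in sham 1, I/R 3 and I/R 4 and is missing in sham 2, where exon 86 takes 57.5%.

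A few circles were listed in both libraries of 1 group and in neither of the other. In I/R these were the circles of exons 125 to 129 (chr2:76691662-76694423, 3 and 3 reads), 67 to 120 (chr2:76695961-76732480, 2 and 2 reads) and 87 to 114 (chr2:76700407-76719896, 2 and 2 reads). In sham there was 1 (chr2:76709133-76709786, 2 and 2 reads), which runs from the donor of exon 102 to the 1 site that matched no exon end. Of all 1046 circRNAs, 3.06% were listed in both I/R libraries and no sham library, and 3.73% the other way round, so the 3 and 1 of 31 Ttn circles are set beside these shares and were not tested. That site lies inside exon 101, whose last 25 of 184 bases start there. At 2 or 3 reads per library, so close to the smallest listed count, a difference was not detectable at this depth, and no fold is given.

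The remaining circles had 2 to 9 reads each. The longest on the genome, of exons 87 to 224 (78.5 kb), had 9 reads in I/R 3 alone. Exons 88 to 120 had 8 reads in sham 1 alone, and exons 79 to 120 had 6 in I/R 4 alone. Beyond the exons that Ttn-201 lacks lay the circles of exons 203 to 225 (4, 0, 4 and 0 reads) and 202 to 224 (4, 0, 0 and 3). Upstream of them, exons 46 to 47 had 2 reads in I/R 4. The shortest matched circle, exons 139 to 142, held 330 bases in 4 PEVK exons and had 2 reads in sham 1. In these 7 circles the groups overlapped. Exons 87 to 126 had 3, 2, 0 and 2 reads (0.159%, 0.123%, 0% and 0.101%), so both I/R libraries lay below both sham libraries, at counts near the smallest listed.

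Reads were then summed per splice site, which gathers circles that share an end. Of the 325 sites tested in all libraries 0 passed in edgeR (0%; 19 at an unadjusted p under 0.05), with 0 calls by DESeq2 and 3 by limma-voom. The donor of exon 120 had 101, 40, 130 and 212 reads (log2 fold change 1.25, SE 0.79, edgeR adjusted p = 0.914). It was fitted at 2.01 without sham 1 and 0.69 without sham 2. For the acceptor of exon 86, with 24, 28, 35 and 87 reads, the log2 fold change was 1.23 (SE 0.61) and 0.40 without I/R 4. At the acceptor of exon 87 there were 52, 4, 95 and 121 reads (log2 fold change 1.90, SE 1.09, edgeR adjusted p = 0.914). This acceptor passed in limma-voom (adjusted p = 0.000257) and, in edgeR, without sham 1 (adjusted p = 0.000915), and its log2 fold change was 0.99 without sham 2. Of the 12 Ttn sites tested, 6 had both I/R libraries above both sham libraries, against 18.2% of all tested sites, and 1 had both below, against 21.5%; sites of the same circle are not independent.

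The donor of exon 171 was listed only in I/R, with 2 reads in I/R 3 and 14 in I/R 4. Exon 171, of 87 bases, is a PEVK exon with 82.8% proline, glutamate, valine and lysine codons, which Ttn-203 holds and Ttn-201, Ttn-204 and Ttn-205 lack. Its circles are the 3 that the files label with both Mir684-1 and Ttn and call intronic. They run from exon 120 (9 reads in I/R 4) and exon 86 (chr2:76669845-76722254, 5 reads in I/R 4) and from exon 87 (chr2:76669845-76719896, 2 reads in I/R 3). The RefSeq gene table for GRCm38 places Mir684-1 on chromosome 2 outside Ttn. The donor did not pass with all libraries (edgeR adjusted p = 0.694); without a filter on low counts it did (adjusted p = 0.0385), and 14 of its 16 reads came from I/R 4.

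Position and size of the circles were compared as means weighted by reads. The midpoint lay 9.05, 11.1, 8.76 and 10.9 kb upstream of the donor of exon 120, with overlapping groups (10.1 ± 1.42 and 9.81 ± 1.49 kb, SD, n = 2; p = 0.667, exact two-sided permutation test). The genomic span was 23.8, 24.7, 25.5 and 24.5 kb, again overlapping (24.2 ± 0.62 and 25.0 ± 0.69 kb, SD, n = 2; p = 0.667, exact two-sided permutation test). The difference in midpoint, -0.24 kb, was smaller than the SD of either group. That in span, 0.74 kb, was larger than both SDs, but single libraries of the groups overlapped.

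Non-junction reads, which come from linear RNA or from inside circles, were counted by the authors at the sites of each listed circle. In the 2 sets of 4 circles that share 2 starts and 2 ends in 1 library, 1 of them in Ttn, these counts added up exactly as a sum over both sites, so circles with a common site share reads. Test values exist for the 4 Ttn circles listed in all libraries. At the circle of exons 86 to 120 there were 1704, 1847, 1599 and 1391 non-junction reads (log2 fold change -0.16, SE 0.20, edgeR adjusted p = 0.624). Exons 77 to 120 had 1504, 1537, 1349 and 1154, and exons 68 to 120 had 1597, 1581, 1371 and 1235. For exons 106 to 112 there were 1976, 2249, 2348 and 2231 (log2 fold change 0.20, SE 0.21). None of these 4 passed, against 8.82% of the 102 circRNAs in this test. Scaled to the sum over the 102, both I/R libraries lay below both sham libraries for exons 77 to 120 and 68 to 120, 2 of the 4, as for 41.2% of the 102, and above them for 0 of the 4, as for 15.7%.

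The circular share, 2 times the back-splice reads divided by that number plus the non-junction reads, was compared next. For exons 86 to 120 it was 2.52%, 2.43%, 3.85% and 10.3%, above sham in both I/R libraries and highest in I/R 4. Relative to non-junction reads, back-splice reads had a log2 fold change of 1.40 (SE 0.48, unadjusted p = 0.0162, edgeR adjusted p = 0.558), 2.11 without I/R 3 and 0.53 without I/R 4. Exons 106 to 112 had 1.69%, 0.881%, 1.84% and 2.19% (log2 value 0.57, SE 0.41), with 1.17 without sham 1 and 0.083 without sham 2. Exons 77 to 120 had 1.44%, 1.03%, 1.03% and 0.859%, and exons 68 to 120 had 0.498%, 1.13%, 1.44% and 0.962%. Of the 102 circRNAs 0.98% passed in this test, and none of the 4 was among them. In 2 of the 4 both I/R libraries lay above both sham libraries, against 30.4% of the 102, and in 1 both lay below, against 16.7%. Where it was listed, the leading circle of exons 87 to 120 had a circular share of 4.49% in sham 1, 7.85% in I/R 3 and 11.2% in I/R 4, beside 2000, 1854 and 1695 non-junction reads.

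**Figure D5:**
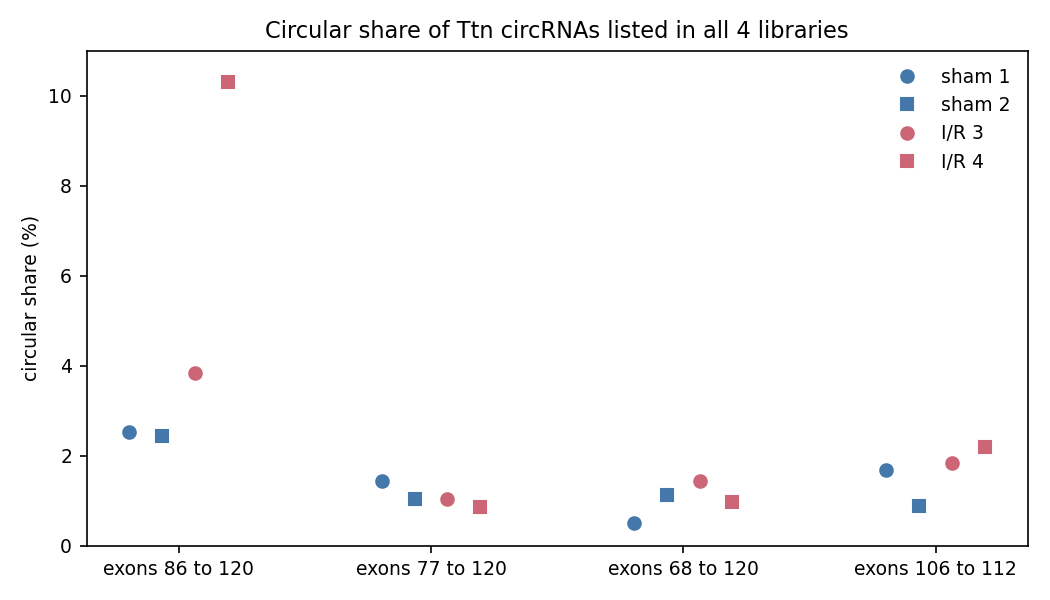
Circular share in percent of the 4 Ttn circles listed in every library; circles and squares are the 2 libraries of a group, blue for sham and red for I/R. Exons 86 to 120 reach 10.3% in I/R 4 and 3.85% in I/R 3, and all other points lie at or below 2.52%.

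Because circles share sites, the difference of their non-junction counts compares the sites that they do not share. In I/R 4 the donor of exon 113 had 1068 more non-junction reads than that of exon 120, yet the circles to exon 87 had 2 back-splice reads from exon 113 and 107 from exon 120. The donor of exon 114 had 444 more in I/R 3 and 398 more in I/R 4, with 2 back-splice reads in each. Other upstream donors had lower counts than exon 120. In sham 2 the circle of exons 86 to 115 had 1388 non-junction reads, against 1847 for exons 86 to 120. In I/R 4 exons 77 to 117 had 672, against 1154 for exons 77 to 120. Downstream of exon 120, in circles to exon 87, the differences also went both ways. Exon 126 was at -687 in sham 1 and -581 in I/R 4, exon 134 at -639 in I/R 4, exon 142 at -195 in sham 1 and -31 in I/R 4, and exon 171 at -812 in I/R 3. In I/R 3 the donors of exons 125 and 224 were at 154 and 294 above exon 120. In I/R 3 and I/R 4 the donor used most for circles was thus not the one with the most non-junction reads. In sham 1 the donors of exons 142 and 126, compared with it in circles to exon 87, had fewer. Among acceptors, that of exon 87 had 296, 255 and 304 more non-junction reads than that of exon 86 in sham 1, I/R 3 and I/R 4, and that of exon 46 had 461 and 507 more in sham 1 and I/R 4. The acceptor of exon 77 had lower counts than that of exon 86 in every library, by -200, -310, -250 and -237.

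Other genes of the pathway were taken from lists. Among 47 partners of titin and sarcomere genes, 6 had circRNA reads and 4 could be tested as hosts; 0 passed, and all 4 were fitted below 0, with a median log2 fold change of -0.56 against -0.05 over all 154 hosts, of which 75 were above 0 and 79 below. Among them were the titin-binding LIM protein gene Fhl2 (log2 fold change -0.10), the myosin heavy chain gene Myh6 (-0.97) and the tropomyosin gene Tpm1 (-0.16). Among 25 genes other than Ttn whose transcripts RBM20 is known or reported to splice, 13 had reads and 6 could be tested. All 6 were fitted below 0 and 0 passed, with a median log2 fold change of -1.04. The values ran from -2.66 (Cacna1c) to -0.04 (Ryr2), the latter near the median of all hosts. The lists share members, among them Tpm1. The 6 also include the calcium channel gene Cacna1c (7, 7, 0 and 2 reads), the muscle gene Mlip (23, 9, 4 and 17) and the ryanodine receptor gene Ryr2 (20, 13, 11 and 21).

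By profile over the 4 libraries, the hosts most like Ttn among 71 others with at least 20 reads were Yes1, a Src-family kinase gene (5, 3, 7 and 13 reads), Ankib1, a ubiquitin ligase gene (4, 3, 5 and 11), and Rps6kb1, a kinase gene (5, 3, 7 and 6). Their centred log2 profiles differed from that of Ttn by 0.16, 0.27 and 0.35 on average. With 4 libraries this is a description only.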

How the data were processed

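Sequencing of heart total RNA gave 2 sham and 2 I/R libraries. BWA 0.7.5a-r405, HTSeq 0.9.1 and mm9 appear in the submitters' processing notes with no stated role, and no source used here names the circRNA caller. For each library the authors deposited whole-number counts of back-splice and non-junction reads. They also deposited a fraction, 2 times the first count divided by that number plus the second (largest deviation 0.0005). A further table deposited by the authors holds log2 fold changes, p-values and 2 score columns, t and B, per the file headers. The merged matrix differed from the per-library counts in 0 cells.

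Counts were tested here with edgeR 4.0.16 in R 4.3.3 (quasi-likelihood, TMM). Library sizes for circRNAs, hosts and sites were total back-splice reads. All circRNAs, hosts or sites with at least 10 reads that were listed in at least 2 libraries were fitted, with Benjamini-Hochberg adjustment; SEs come from the F statistic. Non-junction counts, and their change against back-splice counts with library as a term, were fitted on the 102 circRNAs listed in every library. Library sizes there were sums over these 102 circRNAs, taken separately for back-splice and non-junction reads. The functions were tested on simulated data. Alternatives were DESeq2 1.42.0, limma-voom (limma 3.58.1), other scalings and filters, and leaving out each library.

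Circles were named if tested, joint-labelled, listed in all 4 libraries, or listed in both libraries of 1 group only; the few others named were picked after their values were seen. The 3 hosts most like Ttn had the smallest mean absolute difference of centred log2(CPM + 615) profiles, 615 CPM being 1 read of the smallest library. Some genes of the lists are not reported here. Members and lists were chosen with earlier results of these data known.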

Additional observations from a re-analysis of the deposited data

How the results depend on the processing

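Depth left 25 of the 31 Ttn circles with fewer than 10 reads, and there were 2 libraries per group. No paired analysis was possible because the labels name no animal and no matched pair. Calls of circRNAs rose from 0 to 3 without a filter and were 0 to 1 without a library. Host calls went from 0 to 1 without a filter and were 0 to 1 without a library. Site calls went from 0 to 3 in limma-voom and 6 without a filter, and were 0 to 2 without a library. Non-junction calls went from 9 to 4 without TMM, 5 with median ratio size factors and 3 in DESeq2, and were 1 to 8 without a library. The ratio test made 1 call, and 0 to 0 without a library.

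The difference in the Ttn share, 6.38 percentage points, was 2.74 without the leading circle and 4.41 to 8.35 without a library. The share at the donor of exon 120 differed by 6.55 percentage points, by -4.89 without the leading circle and by 0.46 to 12.6 without a library. The midpoint differed by -0.24 kb, by 0.33 with only the Ttn label, by 1.42 with each circle counted once and by -1.29 to 0.82 without a library. The span differed by 0.74 kb, by -1.25 with at least 10 reads, 1.55 without the leading circle, 3.37 with each circle counted once and 0.26 to 1.23 without a library.

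Without a library the log2 fold change of exons 68 to 120 ranged from -0.21 to 0.87 and that of the acceptor of exon 68 from -0.23 to 0.92. That of exons 46 to 120 was -1.67 without sham 2 and 0.29 without I/R 3. For the exon 46 acceptor these values were -1.22 and 0.72. Without sham 1 or without I/R 4, these were listed in a single library and were not fitted. The exon 46 acceptor was at 0.071 in limma-voom. A library left alone in its group is assumed to vary like the other group. The log2 fold change of back-splice relative to non-junction reads ranged from -0.78 to -0.16 for exons 77 to 120 and from 0.061 to 1.11 for exons 68 to 120 without a library. The cause of these changes was not tested.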
